A study of Mus musculus with 10 samples.

Results

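The acyl-CoA thioesterases are described here through 9 genes of the Acot family in mouse liver, of 19505 genes that carried a probe set with 1 gene symbol. The members were taken by symbol from the annotation of the array, and each had 1 probe set. Livers came from 10 male C57BL/6N mice aged 8 weeks at purchase, and each liver was read on its own Clariom S Mouse Array. The iso-α-acids diet group (n = 5) ate an AIN-93G diet with 0.5% (w/w) iso-α-acids, the bitter acids of hops in beer, for 1 week. The control diet group (n = 5) ate AIN-93G without them and was pair-fed to the intake of the other group. All 10 mice received 200 mg/kg acetaldehyde i.p. 5 h before the livers were taken, so that every value is a level after acetaldehyde and no liver without it was compared. The mice on the arrays were picked by their serum enzyme values and are not a random draw. The family was put together with results of the diet comparison already known, so the tests below, which are fitted over all probe sets, are not independent support for the choice of genes.

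Acyl-CoA thioesterases cut a fatty acyl-CoA into the free fatty acid and coenzyme A. They thereby work against the acyl-CoA synthetases, free coenzyme A for other uses, and set how much acyl-CoA is left in the cytosol, the mitochondria and the peroxisomes. The type I enzymes (Acot1 to Acot6 in mouse) share an α/β-hydrolase fold and lie side by side in the genome, whereas Acot8, Acot12 and Acot13 have another fold, the hotdog fold. In rodent liver, fasting and agonists of the nuclear receptor PPARα are known to raise several type I genes.

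In the type I cluster, 4 neighbouring genes rose with iso-α-acids, Acot1, Acot2, Acot3 and Acot4, by 1.71-fold to 4.41-fold. Acot1 and Acot2 were lower in replicate 1 of this group than in the other iso-α-acids mice, while Acot3 was higher there than in any other mouse. Acot12 and Acot13 had small positive differences that did not pass limma's test. Acot5, Acot6 and Acot8 could not be read in either direction.

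These last 3 members had flat probe sets, meaning an SD under 0.001 on the log2 scale over the 10 arrays. The authors summarized probes with qFARMS, a factor analysis that shrinks a probe set whose probes do not vary together, so a flat value shows neither a change nor its absence. Acot8 had the highest SD among the flat members (7.1e-05) and Acot13 the lowest among the varying ones (0.101). The SD was taken over both diet groups, so a gene that differs between them is more likely to count as varying, and no weight is put on the number of varying members. Over the whole table, 11.0% of 22206 probe sets varied.

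The promoters of 3 type I genes are shown because these genes differed most from one another in how the mice responded. Acot1 and Acot3 rose by similar amounts with opposite behaviour in 1 mouse, and Acot4 rose less with little spread. Each window runs from 250 bases before to 50 bases after the annotated gene start (RefSeq, GRCm38.p6). Capitals mark AGGTCA, the half-site that PPARα and related nuclear receptors read, and TGACNNNGC, the core of the antioxidant response element that Nrf2 reads, on either strand.
Acot1, chr12:84009252-84009551, plus strand: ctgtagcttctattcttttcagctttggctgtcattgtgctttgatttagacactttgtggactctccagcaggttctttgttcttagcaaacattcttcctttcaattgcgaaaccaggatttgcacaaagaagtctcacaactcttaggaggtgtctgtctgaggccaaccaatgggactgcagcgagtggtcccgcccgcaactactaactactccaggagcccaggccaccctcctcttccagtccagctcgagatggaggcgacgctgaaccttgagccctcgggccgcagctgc
Acot3, chr12:84051894-84052193, plus strand: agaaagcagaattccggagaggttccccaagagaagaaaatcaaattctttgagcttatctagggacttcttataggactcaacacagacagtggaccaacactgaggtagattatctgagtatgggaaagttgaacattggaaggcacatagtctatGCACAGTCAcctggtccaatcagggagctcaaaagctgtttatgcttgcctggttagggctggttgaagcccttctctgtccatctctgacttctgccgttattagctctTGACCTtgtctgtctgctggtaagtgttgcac
Acot4, chr12:84038129-84038428, plus strand: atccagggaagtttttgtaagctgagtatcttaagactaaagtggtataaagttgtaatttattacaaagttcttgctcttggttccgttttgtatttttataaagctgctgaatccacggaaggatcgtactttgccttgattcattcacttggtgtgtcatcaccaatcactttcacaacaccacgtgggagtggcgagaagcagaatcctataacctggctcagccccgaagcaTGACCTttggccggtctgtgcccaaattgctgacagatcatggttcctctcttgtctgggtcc

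A window was at hand for 7 of the 9 members, all but Acot6 and Acot13. The half-site was in the windows of 4 of these 7 (Acot3, Acot4, Acot5 and Acot12), against 16.3% of 32851 windows of the same length over all genes. The antioxidant response element core was in 1 of 7, Acot3, against 12.4% of all windows. A direct repeat of the looser form AGGNCA with 1 base between, searched on both strands, was in none of the 7 and in 0.381% of all windows. A repeat can contain the half-site, so these searches overlap. The windows of Acot1 and Acot2 held none of the 3 motifs, and the matches are letters in a short window, not shown to be bound.

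Acot1 encodes the cytosolic thioesterase of long-chain acyl-CoAs. In the control diet group its level was 7.33, 7.02, 6.76, 7.05 and 6.90 on the log2 scale in replicates 1 to 5. In the iso-α-acids diet group it was 8.11, 9.55, 9.24, 9.17 and 9.29. The groups did not overlap, and the lowest iso-α-acids mouse, replicate 1, lay 0.78 above the highest control mouse. The means were 7.01 ± 0.21 and 9.07 ± 0.55 (SD, n = 5 each), a 4.17-fold rise. On the log2 scale limma put it at 2.06 (standard error 0.26, 95% interval 1.46 to 2.65), with adjusted p = 0.0129. Without control replicate 5 the rise was 2.03 and the call was lost (adjusted p = 0.0501 from limma), in a fit that called 0.297% of all probe sets higher.

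Acot2 is the mitochondrial matrix counterpart of Acot1, and both genes were lowest in replicate 1 and highest in replicate 2 among the iso-α-acids mice. Its log2 level was 7.37, 7.61, 7.04, 7.28 and 7.23 in control replicates 1 to 5. In the iso-α-acids diet group it was 8.58, 9.30, 9.13, 9.16 and 9.11, with no overlap between groups. The means were 7.31 ± 0.21 and 9.06 ± 0.28 (SD, n = 5 each). The rise was 3.36-fold, or 1.75 on the log2 scale (standard error 0.15, 95% interval 1.40 to 2.09), and limma gave an adjusted p of 0.00172.

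Acot3 encodes a peroxisomal thioesterase of long-chain acyl-CoAs. Control replicates 1 to 5 lay at 6.42, 6.09, 6.31, 6.44 and 6.10 on the log2 scale. The iso-α-acids mice lay at 9.41, 8.16, 8.17, 8.44 and 7.89, so that replicate 1 was the highest here and the gap between the groups was 1.45. The means were 6.27 ± 0.17 and 8.41 ± 0.59 (SD, n = 5 each). The rise was 4.41-fold, or 2.14 on the log2 scale (standard error 0.27, 95% interval 1.52 to 2.76), and limma gave an adjusted p of 0.0128. Without control replicate 5 the adjusted p of Acot3 was 0.0489 from limma.

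Acot4, whose peroxisomal enzyme in mouse acts on succinyl-CoA and other dicarboxylic acyl-CoAs, rose least of the 4 but most evenly. Its log2 level was 7.15, 7.00, 6.96, 7.14 and 7.09 in control replicates 1 to 5 and 7.87, 7.91, 7.79, 7.84 and 7.80 in the iso-α-acids mice. All iso-α-acids mice lay within a narrow band, replicate 1 included, and above all control mice. The means were 7.07 ± 0.086 and 7.84 ± 0.051 (SD, n = 5 each), a 1.71-fold rise (log2 difference 0.77, standard error 0.044, 95% interval 0.67 to 0.87). Its adjusted p was the lowest among the members, 0.000102 from limma. The differences of Acot1, Acot2, Acot3 and Acot4 from one another were not tested.

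Acot5, a peroxisomal thioesterase of medium-chain acyl-CoAs, and Acot6, which acts on methyl-branched acyl-CoAs in peroxisomes, complete the type I cluster. Both were flat, at 5.43 and 6.09 on every array. Along chromosome 12 the order of the cluster is Acot2, Acot1, Acot4, Acot3, Acot5 and Acot6. The 4 genes that rose are thus the first 4 of the run and the flat ones the last 2. Among the nearest 3 protein-coding genes on each side, Numb, Riox1, Dnal1, Pnma1 and Mideas were flat too, and Heatr4 was not analysed here. The members of the cluster are close copies of one another, and whether the probes of one also read the transcripts of another was not tested.

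**Figure D1:**
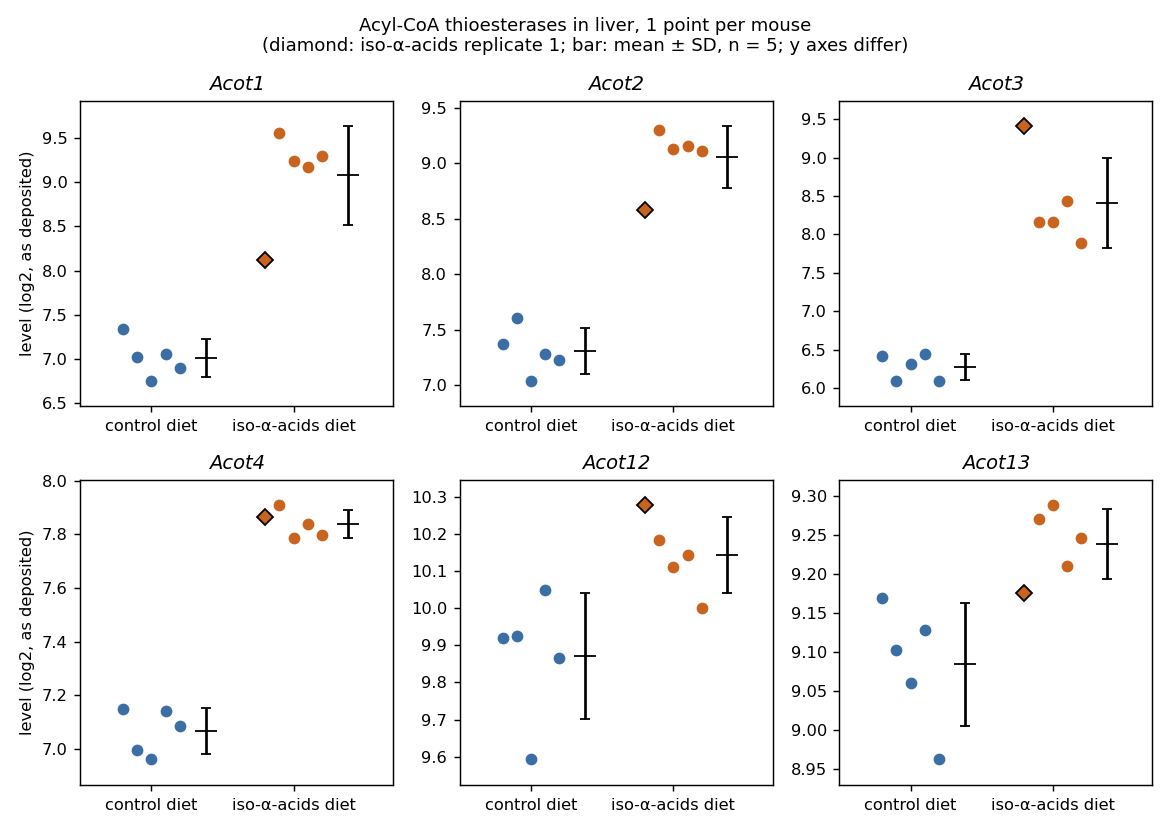
Log2 level of the 6 varying members (y axis, a different range in each panel) in each mouse of both diets, with 1 point per mouse, a diamond for iso-α-acids replicate 1 and bars for the mean ± SD (n = 5). The groups are apart for Acot1, Acot2, Acot3 and Acot4, overlap for Acot12, and are separated by only 0.0068 for Acot13.

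Outside the cluster, Acot12 and Acot13 varied and Acot8 was flat. Acot12, the cytosolic acetyl-CoA hydrolase of liver, lay at 9.92, 9.92, 9.59, 10.05 and 9.87 in control replicates 1 to 5 and at 10.28, 10.18, 10.11, 10.14 and 10.00 in the iso-α-acids mice, on the log2 scale. Iso-α-acids replicate 5 lay below control replicate 4, so the groups overlapped. The log2 difference was 0.27 (standard error 0.086, 95% interval 0.075 to 0.47) and did not pass limma's test (adjusted p = 0.307).

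Acot13 (also called Them2) hydrolyses long-chain acyl-CoAs at mitochondria and binds the phosphatidylcholine transfer protein Pctp. Its log2 level was 9.17, 9.10, 9.06, 9.13 and 8.96 in control replicates 1 to 5 and 9.18, 9.27, 9.29, 9.21 and 9.25 in the iso-α-acids mice. The groups came as close as 0.0068, between replicate 1 of each. The log2 difference of 0.15 (standard error 0.040, 95% interval 0.063 to 0.25) did not pass the test over all probe sets (limma, adjusted p = 0.188). When limma was fitted over the varying probe sets alone, Acot13 was called higher (adjusted p = 0.0284), in a setting where 13.4% of the probe sets tested were. Acot8, a peroxisomal thioesterase of broad range that also acts on bile acid CoA esters, stayed at 7.35 on all arrays.

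Of the 9 members, 4 were called higher and none lower by limma, against 0.590% of all 22206 probe sets called higher and 0.171% lower. Among the 2439 varying probe sets of the same fit these shares were 5.13% and 1.07%. At an unadjusted p under 0.05, 7 were higher and none lower, among them the flat Acot8, against 4.81% of all probe sets higher and 5.02% lower. All 4 calls were in the type I cluster of 6, and none of the other 3 members was called. Rank products, the test named in the study's methods, called 6 members higher and none lower, adding Acot12 (FDR = 0.00299) and Acot13 (FDR = 0.00740), where it called 3.72% of all probe sets higher and 3.19% lower. The groups did not overlap for 5 members, all higher with iso-α-acids, and for 1.77% of all probe sets in that direction and 1.42% in the other. The median log2 difference was 1.26 over the 6 genes of the type I cluster and 0.15 over the other 3. Both medians count flat genes, which cannot be read, and 4 and 2 genes respectively varied. The median was -7.21e-07 over all probe sets, most of them flat, and 0.0073 over the varying ones. From the largest rise down, Acot3 was the 8th, Acot1 the 10th, Acot2 the 16th and Acot4 the 78th of 19505 genes by log2 difference. Genes that fell come last in this order, and 2172 of the 19505 genes had a varying probe set.

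**Figure D2:**
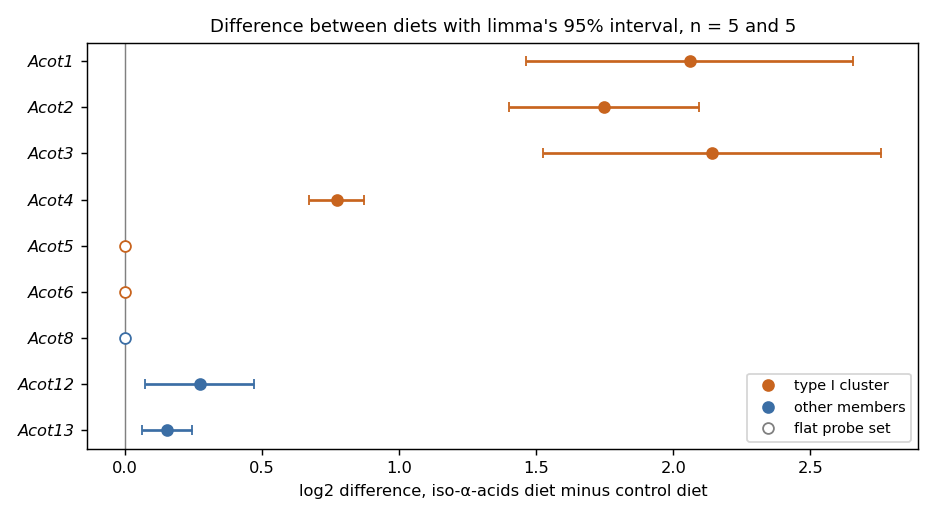
Log2 difference, iso-α-acids minus control (x axis), for all 9 members, with limma's 95% interval (n = 5 and 5) and open symbols for flat probe sets. The intervals of Acot1, Acot2 and Acot3 lie between 1.40 and 2.76, that of Acot4 between 0.67 and 0.87, and those of Acot12 and Acot13 between 0.063 and 0.47.

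The mice fed iso-α-acids did not respond alike in this family. In replicates 2 to 5, Acot1 lay 2.30 above the control mean on the log2 scale, Acot2 1.87, Acot3 1.89 and Acot4 0.77. In replicate 1, Acot1 lay only 1.10 above it and Acot2 1.27, whereas Acot3 lay 3.14 above it and Acot4 0.80. Set against the mean of replicates 2 to 5, replicate 1 was therefore at -1.20 for Acot1, -0.60 for Acot2, 1.25 for Acot3 and 0.03 for Acot4. Among replicates 2 to 5, the whole range of Acot1 was 0.38, that of Acot2 0.19, that of Acot3 0.55 and that of Acot4 0.12. These are values of 1 mouse. An outlier check described further below set it apart for Acot1 and Acot2, but not for Acot3 or Acot4. Its difference from the others was not tested in another way.

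Outside the cluster, replicate 1 was at 0.17 for Acot12 and -0.08 for Acot13 against the mean of replicates 2 to 5. Without replicate 1, the log2 difference between diets was 2.30 for Acot1 (adjusted p = 0.000192 from limma), 1.87 for Acot2, 1.89 for Acot3 and 0.77 for Acot4, and all 4 genes were called. Limma then also called the flat Acot8, on a log2 difference of 0.000119, too small to be read as a change in level. In that fit, 1.57% of all probe sets were called higher.

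**Figure D3:**
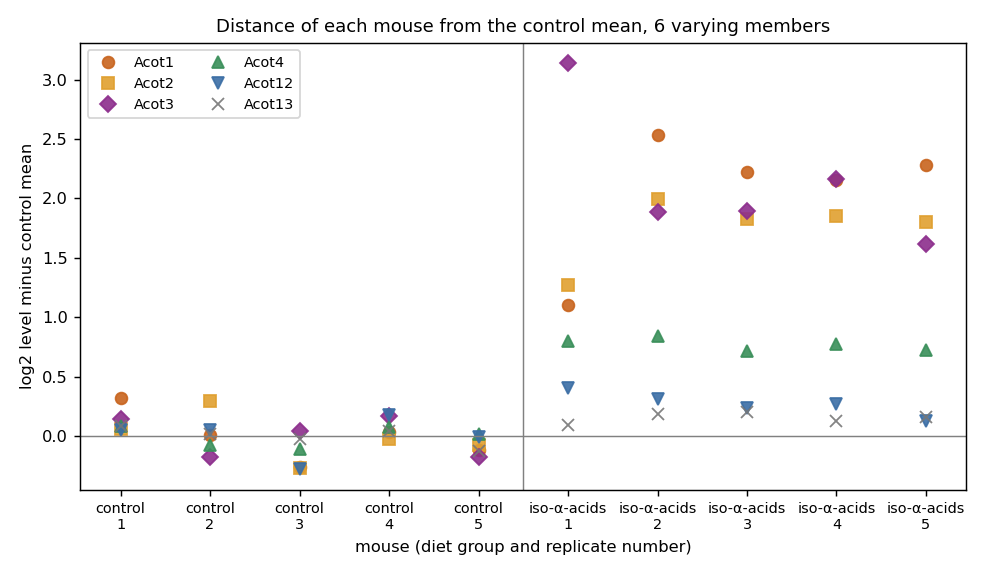
Log2 level minus the mean of the control diet group (y axis) in each of the 10 mice (x axis) for the 6 varying members. In iso-α-acids replicate 1 Acot3 is at 3.14 while Acot1 and Acot2 are at 1.10 and 1.27, and in replicates 2 to 5 these 3 genes lie between 1.62 and 2.53.

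Replicate 1 also differed in acute phase genes, which the liver makes in stress and inflammation. Mt1 and Mt2, metallothioneins that bind metals, lay at 12.84 and 12.59 in this mouse and Lcn2, a secreted protein that binds iron carriers, at 12.12, each above all other mice on the log2 scale. Saa1 and Saa2, which encode serum amyloid A, lay at 9.22 and 9.14 there, below their control means of 9.42 and 9.50 but above the other iso-α-acids mice. Hp and Orm2, at 12.95 and 10.02, were also highest in this mouse. The mean log2 level over 7 acute phase genes was 11.27 in this mouse, 8.49 to 9.04 in the other iso-α-acids mice and 8.73 to 10.66 in the control diet group. None of the 7 passed limma's test. Rank products called Mt1 and Mt2 higher, Saa1, Saa2, Hp and Orm2 lower, and Lcn2 in both directions. It called 3.72% of all probe sets higher and 3.19% lower. Hepatocyte markers (7 genes, of which 3 varied) were high on all arrays, with a mean log2 level of 12.58 to 12.69, as the tissue label requires. The flat ones among them narrow this range and show neither a change nor its absence. Of 6 Kupffer cell markers, which tag the resident macrophages of the liver, 4 varied. Their mean log2 level over the 6, flat ones included, was 7.50 to 7.73 with iso-α-acids and 7.79 to 8.13 without. All 4 varying markers were lower with iso-α-acids, with log2 differences of -0.66 for Clec4f, -0.56 for Vsig4, -0.54 for Cd5l and -0.32 for Adgre1. None of the 6 passed limma's test. Rank products called these 4 lower, against 3.19% of all probe sets. In whole liver, fewer cells of a type and less RNA per cell cannot be told apart. The part of the acute phase and Kupffer cell levels in the Acot values was not tested.

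The genes with the pattern most like each risen member were sought among 2166 other varying genes, by the root mean square of the log2 difference over the 10 arrays after each gene was set to its control mean. For Acot1 they were Ehhadh (0.26), an enzyme of peroxisomal β-oxidation, Crat (0.35), the carnitine acetyltransferase, and Pctp (0.35). All 3 were lower in iso-α-acids replicate 1 than in its replicates 2 to 5, by log2 differences of -1.35, -0.63 and -1.24. The measure of likeness takes in replicate 1, so a shared level in that mouse follows in part from how the genes were picked. For Acot2 they were Crat (0.11), Gstm4 (0.18), a glutathione S-transferase, and Cyp3a44 (0.22), a cytochrome P450. Their differences between replicate 1 and replicates 2 to 5 were -0.63, -0.20 and -0.06, against -0.60 for Acot2. Acot2 itself lay at 0.31 from Acot1 by this measure.

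Members themselves were left out of this search. For Acot3 the likest genes were Cyp2a4 (0.22) and Cyp2a5 (0.30), cytochromes P450 that act on steroids and coumarin, and Gsta2 (0.32), a glutathione S-transferase. Their log2 levels in replicate 1 were 1.31, 0.99 and 1.25 above those in the other iso-α-acids mice, a likeness that the choice of genes had used. Acot3 lay further from Acot1 (0.73), Acot2 (0.63) and Acot4 (1.04) than from these genes. On the array Gsta2 rose by 2.12 on the log2 scale, whereas the paper's quantitative RT-PCR of liver RNA found it not increased. For Acot4 the likest were Ugt2b35 (0.10), a UDP-glucuronosyltransferase, Creg1 (0.11), a secreted glycoprotein, and Ech1 (0.13), a dienoyl-CoA isomerase of fatty acid oxidation. In replicate 1 these stood at 0.19, 0.05 and -0.41 against replicates 2 to 5, and Acot4 at 0.03. Acot4 too lay further from Acot1 (0.98), Acot2 (0.73) and Acot3 (1.04) than from its likest genes. These distances over 10 arrays are a description, and they count the spread among control mice as well as the diet difference.

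**Figure D4:**
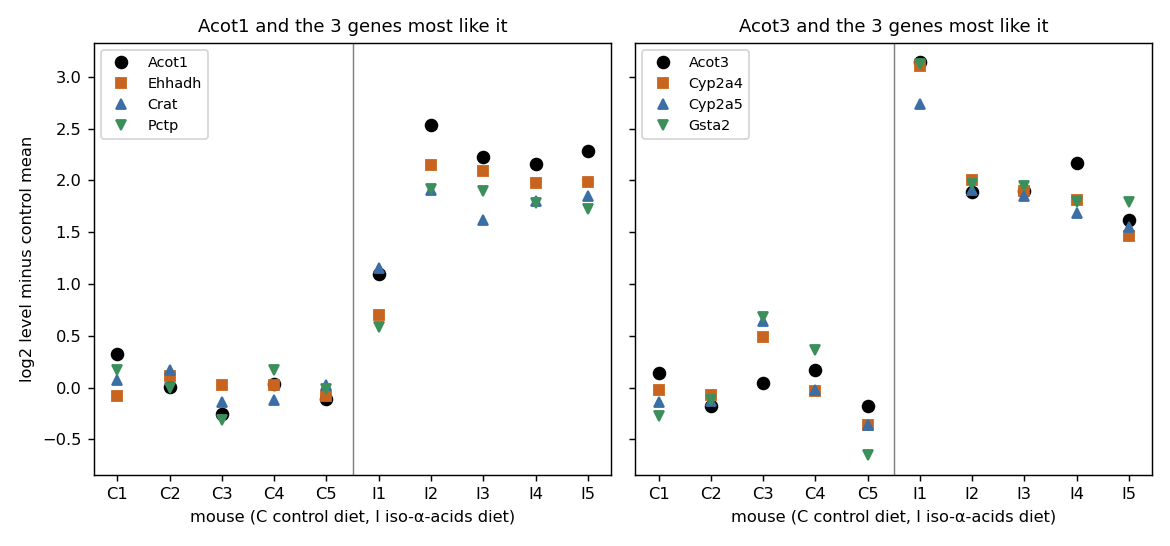
Log2 level minus the control mean (y axis) in each mouse (x axis) for Acot1 with Ehhadh, Crat and Pctp, and for Acot3 with Cyp2a4, Cyp2a5 and Gsta2. In iso-α-acids replicate 1 (I1) the first set lies between 0.58 and 1.16 and the second between 2.74 and 3.14.

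Genes around the thioesterases in acyl-CoA metabolism were counted from lists of related functions. Of 10 other thioesterases and related N-acyltransferases, 8 were flat and none was called by limma, nor at an unadjusted p under 0.05. Rank products called 1 lower (Acnat1), against 3.19% of all probe sets. The 2 that varied were Acnat1 and Acnat2, which join acyl groups to amino acids and are relatives of the type I enzymes. Acnat1 differed by -0.13 (standard error 0.078, limma's adjusted p = 0.663) and Acnat2 by -0.06 (standard error 0.076, limma's adjusted p = 0.874), both on the log2 scale.

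Of 14 acyl-CoA synthetases measured, which make the substrates of the thioesterases, 10 varied. Limma called 1 of them higher and none lower, against 0.590% and 0.171% of all probe sets. Rank products called 8 higher and none lower, against 3.72% and 3.19% of all probe sets. The called gene was Slc27a1, a fatty acid transporter with synthetase activity, higher by 0.38 on the log2 scale (standard error 0.032, limma's adjusted p = 0.00170). Of 10 genes that make or break down coenzyme A, 6 varied, 5 of them with a positive log2 difference, and none was called by limma. Without iso-α-acids replicate 1, limma called 2 higher and none lower, in a fit that called 1.57% of all probe sets higher. The largest rise was in Vnn1, by 2.26 on the log2 scale (standard error 0.47, limma's adjusted p = 0.0963). Without that mouse the rise of Vnn1 was 2.71 (limma's adjusted p = 0.000859). At an unadjusted p under 0.05, 3 of the 10 were higher and none lower (4.81% and 5.02% of all probe sets). Rank products called 4 higher and 1 lower, against 3.72% and 3.19% of all probe sets. The lower one was Nudt7, by -0.98 on the log2 scale (standard error 0.58, limma's adjusted p = 0.661). It was read from the brightest of its 3 probe sets, and every iso-α-acids mouse lay below all control mice. In iso-α-acids replicate 1 Nudt7 lay at -3.33 against the control mean, and in replicates 2 to 5 at -0.40. Of 7 acyl-CoA binding proteins, 4 varied, and rank products called 3 higher (Acbd5, Dbi and Fabp1) and 1 lower (Scp2). The shares of all probe sets were 3.72% and 3.19%. Of the 7, limma called 1 higher and none lower, against 0.590% and 0.171% of all probe sets. Without iso-α-acids replicate 1 it called 3 of them higher, and 1.57% of all probe sets. The gene called with all mice was Acbd5, a peroxisomal membrane protein (by 0.17 on the log2 scale, standard error 0.026, limma's adjusted p = 0.0331). The call of Acbd5 was lost without any one of control replicates 2 to 5 or iso-α-acids replicates 2 to 5 (limma's adjusted p 0.0647 to 0.106). The median log2 differences of the 3 lists were 0.16, 0.05 and 6.01e-06.

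Of 21 PPARα targets of fatty acid breakdown, 20 varied, and all 20 had a positive log2 difference. Limma called 5 higher and none lower, and rank products 19 higher, against 0.590% and 3.72% of all probe sets higher. With 1 mouse left out limma called 3 to 4 of the list higher, except without iso-α-acids replicate 1, where it called 17. That fit called 1.57% of all probe sets higher. The called genes with the largest differences were Cyp4a14 (6.25) and Cyp4a10 (4.26), which hydroxylate fatty acids, Ehhadh (1.78) and the mitochondrial acyl-CoA dehydrogenase Acadl (0.61), all on the log2 scale. The call of Ehhadh was lost when any mouse other than iso-α-acids replicate 1 was left out (limma's adjusted p 0.0709 to 0.0909). That of Acadl was lost without any one of control replicates 2 and 5 or iso-α-acids replicates 2 to 5 (limma's adjusted p 0.0616 to 0.0744). The median log2 difference of the list was 0.61. Its varying genes had a median of 0.08 above the control mean in iso-α-acids replicate 1 and of 0.69 in replicates 2 to 5. For the 4 varying type I genes these medians were 1.19 and 1.88. The genes of the PPARα list were not alike in replicate 1. Cyp4a14 and Cyp4a10 lay 6.48 and 4.19 above the control mean there, against 6.19 and 4.28 in replicates 2 to 5. Plin2 and Acaa1b lay at -1.02 and -0.39 there, against 0.72 and 1.61 in replicates 2 to 5.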

How the data were processed

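The deposited values are on a log2 scale. The authors quantile normalized the CEL files and summarized them with qFARMS in R and Bioconductor. Versions, settings and the log base are not given in the sources used here, and a base of 2 was inferred from values of 4.94 to 13.37. The values were used as deposited. Symbols are those of the platform annotation, where all 19572 identifiers were found in a RefSeq gene table (GRCm38.p6).

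The diet groups were compared over all 22206 probe sets with limma 3.58.1 in R 4.3.3 (lmFit and eBayes without trend, two-sided, Benjamini-Hochberg adjusted p under 0.05). Rank products took all 120 pairings of the arrays, with the median over pairings and p from the gamma distribution. Every member was named. Of each related list, up to 4 genes that passed limma were named, and the 3 genes most like each member that passed. Acnat1, Acnat2, Vnn1, Nudt7, Fabp1, Acsm5, Plin2, Acaa1b and the chromosomal neighbours were named after their values were seen. The members and lists were chosen with earlier results of these data known. Limma and rank products were first tested on simulated data, where rank products called more unchanged probe sets than changed ones, and limma far fewer, so a rank products FDR printed here is not a calibrated error rate. The labels call the samples biological replicates. The number of arrays limits the precision. The alternatives were leaving out each mouse, the replicate number as a block, other normalizations, filters, variance models, tests and a stricter threshold.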

Additional observations from a re-analysis of the deposited data

Results flagged for a closer look

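In the iso-α-acids diet group, replicate 1 stood apart from the other 4 mice as the lowest for Acot1 (8.11, with the next mouse at 9.17), for Acot2 (8.58, with the next at 9.11) and for Ehhadh (10.93, with the next at 12.21), all on the log2 scale. In each case the gap to the nearest mouse, divided by the range of the group, was above Dixon's 95% critical value for 5 samples (0.738, 0.739 and 0.880). In all, 24 groups were examined, and chance flags about 1 group in 20. They were the 6 varying members and the 6 related genes named because they passed limma, in each diet group. Other genes of the lists were not examined, and replicate 1 lay far from the other iso-α-acids mice in some. It was at 10.47 for Fabp1 and 7.59 for Vnn1, below the next mice at 12.22 and 9.74. For Acsm5 it was at 10.13, above the next at 9.64. Acot3, for which replicate 1 was the highest iso-α-acids mouse, was examined and not flagged. The cause was not tested.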

How the results depend on the processing

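The log2 differences of the 6 varying members kept their direction under all 21 alternatives, and Acot4 was also called under all of them. With 1 mouse left out, the number of members called higher was 3 to 5 (type I members 3 to 4), with log2 differences of 1.94 to 2.30 for Acot1, 1.68 to 1.87 for Acot2, 1.89 to 2.27 for Acot3 and 0.75 to 0.79 for Acot4. Adjusted p was 0.000192 to 0.0501 for Acot1 and 0.000571 to 0.0489 for Acot3 (limma). At an adjusted p under 0.01, 2 members were called, both of type I, with 51 probe sets higher and 3 lower, and 4 genes of the related lists higher. With the replicate number as a block, 1 member was called, the type I gene Acot4 (adjusted p = 0.0365 from limma), with 21 probe sets higher and 1 lower and 3 related genes higher. The labels do not say whether mice with the same number share more than the number. The correlation of their deviations from the group means was -0.21 to 0.23, and 0 of 5 matched best by number. The methods' t-test gave 6 members higher at its threshold (all probe sets, 1008 higher and 1039 lower) and 4 after Benjamini-Hochberg adjustment (119 and 31). Over all probe sets, 131 were higher and 38 lower, against 327 and 168 over varying probe sets alone, 826 and 708 by rank products, 71 lower after a further quantile normalization, and 65 to 349 higher and 6 to 147 lower without 1 mouse, the most without iso-α-acids replicate 1. Of the related lists, 7 genes were called higher and 0 lower, against 19 higher over varying probe sets alone, 13 with array weights, 34 higher and 3 lower by rank products, and 4 to 23 higher without 1 mouse, the most again without that mouse. No member had a further probe set, so that alternative gave no value.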
